A study of Mus musculus with 6 samples.

Results

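The genes described are 10 mouse genes of TGF-beta and Activin signalling: the TGF-beta ligand genes Tgfb1, Tgfb2 and Tgfb3, the Activin subunit genes Inhba and Inhbb, the ligand gene Gdf3, the receptor genes Acvr2b, Acvr1b and Tgfbr1, and the inhibitory Smad gene Smad7. They were chosen by name, with earlier results of these data known, among 17016 genes named on the array. They were found through the transcript accession of each probe. Expression was measured on 6 one-colour Agilent microarrays, 1 for each of 6 groups, all of strain 129 cells grown in a serum replacement medium. The groups were epiblast stem cells (EpiSCs) from E5.5 embryos with SB431542 and untreated, EpiSCs from E3.5 embryos with SB431542 and untreated, and mouse embryonic stem (mES) cells, also labelled E3.5, with SB431542 and untreated. Treated cells received 20 µM SB431542 daily for 4 days. No group has a second array and each kind of cell is represented by 1 line, so the lines stand as the replicates of the EpiSC class. Each array holds a different line and treatment, so the p-values rest on differences between the lines or between their responses. Technical spread cannot be told apart from these, and the spread between cultures of a line was not measured.

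TGF-beta and Activin ligands bind a type II receptor, which phosphorylates a type I receptor kinase, which in turn phosphorylates Smad2 and Smad3. These join Smad4 and act on target genes in the nucleus, among them Smad7, whose product binds the activated type I receptor and damps the signal. Activin and Nodal signalling keeps EpiSCs in their primed pluripotent state, whereas mES cells do not depend on it in the same way. SB431542 inhibits the kinases of the type I receptors encoded by Acvr1b (ALK4), Tgfbr1 (ALK5) and Acvr1c (ALK7). The array measures transcripts, so the kinase block itself is not seen here.

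The RefSeq promoter table of assembly GRCm38.p6 held 8 promoters for 7 of the 10 genes, each spanning 250 bases before to 50 bases after the start. The promoters of Tgfb1 and Tgfb2 are shown because Tgfb1 was lower in both treated EpiSC lines and Tgfb2 separated the untreated cell classes. Capitals mark GC boxes (GGGCGG, on either strand) for Tgfb1, and the E-box (CACGTG) and TATA box (TATAAA) for Tgfb2. No shown motif overlaps another.
Tgfb1, chr7:25686752-25687051, plus strand: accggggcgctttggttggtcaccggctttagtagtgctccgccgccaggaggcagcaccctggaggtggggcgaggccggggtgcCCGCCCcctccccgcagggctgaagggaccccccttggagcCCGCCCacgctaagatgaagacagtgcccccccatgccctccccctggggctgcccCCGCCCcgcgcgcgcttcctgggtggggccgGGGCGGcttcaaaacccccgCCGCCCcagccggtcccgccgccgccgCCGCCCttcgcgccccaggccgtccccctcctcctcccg
Tgfb2, chr1:186705940-186706239, minus strand: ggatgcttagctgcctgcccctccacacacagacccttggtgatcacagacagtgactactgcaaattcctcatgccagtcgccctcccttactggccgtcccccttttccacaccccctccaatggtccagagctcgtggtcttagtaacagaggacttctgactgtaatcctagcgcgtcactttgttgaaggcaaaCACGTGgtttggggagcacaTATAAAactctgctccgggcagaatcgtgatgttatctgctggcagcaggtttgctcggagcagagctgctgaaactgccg

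The Tgfb1 promoter held 6 GC boxes and had a GC content of 77.0%, against a median of 52.7% over 32851 promoters, of which 35.66% held a GC box. The Tgfb2 promoter held 0 GC boxes and had a GC content of 54.3%. Its TATA box lay at -31 from the start, in letters that 13.62% of promoters held, and its E-box at -51, in letters that 7.15% held. The short Smad core CAGAC occurred at 2 places in the Tgfb2 promoter and at 0 in that of Tgfb1, while 49.59% of all promoters held it. The palindrome GTCTAGAC was in 0 of the 8 promoters, against 0.21% of all. Both strands were searched for every motif, and a match describes letters in this window only.

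All 12 probes of the 10 genes were well above background on all 6 arrays. Levels are log2 signals minus each array's 75th percentile, they are read within a probe and not between genes, and a ratio of bulk RNA cannot tell fewer cells of a type from less RNA per cell. Across arrays, 82.6% to 85.7% of the 43379 gene spots were well above background, 0 were saturated, and repeat spots had a median coefficient of variation of 5.42% to 7.76%. The mES and E5.5 EpiSC arrays shared 1 slide, and the treated and untreated E3.5 EpiSC arrays lay on a slide each. Slide and treatment therefore cannot be told apart within the E3.5 pair, which also enters the EpiSC fits with and without the line as a block, while the E5.5 and mES ratios are within 1 slide. The pluripotency gene Pou5f1 stood at -4.38 with SB431542 and at 5.88 without in E5.5 EpiSCs, at -5.39 and 5.73 in E3.5 EpiSCs, and at 5.35 and 5.59 in mES cells. Of 6 EpiSC markers 6 had a higher mean in untreated EpiSCs than in mES cells, and 3 passed by limma (Fgf5, T and Fgf8). Of 7 naive markers 7 were lower in value, and 1 passed (Dppa3). In this comparison 245 of 16153 genes passed. Otx2, an EpiSC marker, stood at -0.18 in E3.5 EpiSCs against -0.04 in mES cells. By the direction of the other markers the lines match their labels. In treated EpiSCs 4 of 6 pluripotency markers fell, and 3 of 6 neuroectoderm markers rose (Hes5 by 6.97, Nr2f1 by 6.19 and Zic1 by 5.78 on the log2 scale). Of all genes 2.13% passed there. The pluripotency markers Sox2 (0.49) and Sall4 (-2.10) did not pass, nor did the neuroectoderm markers Pax6 (3.11), Sox1 (0.56) and Nes (1.81). The part of this change in cell state in the results below was not tested.

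**Figure D1:**
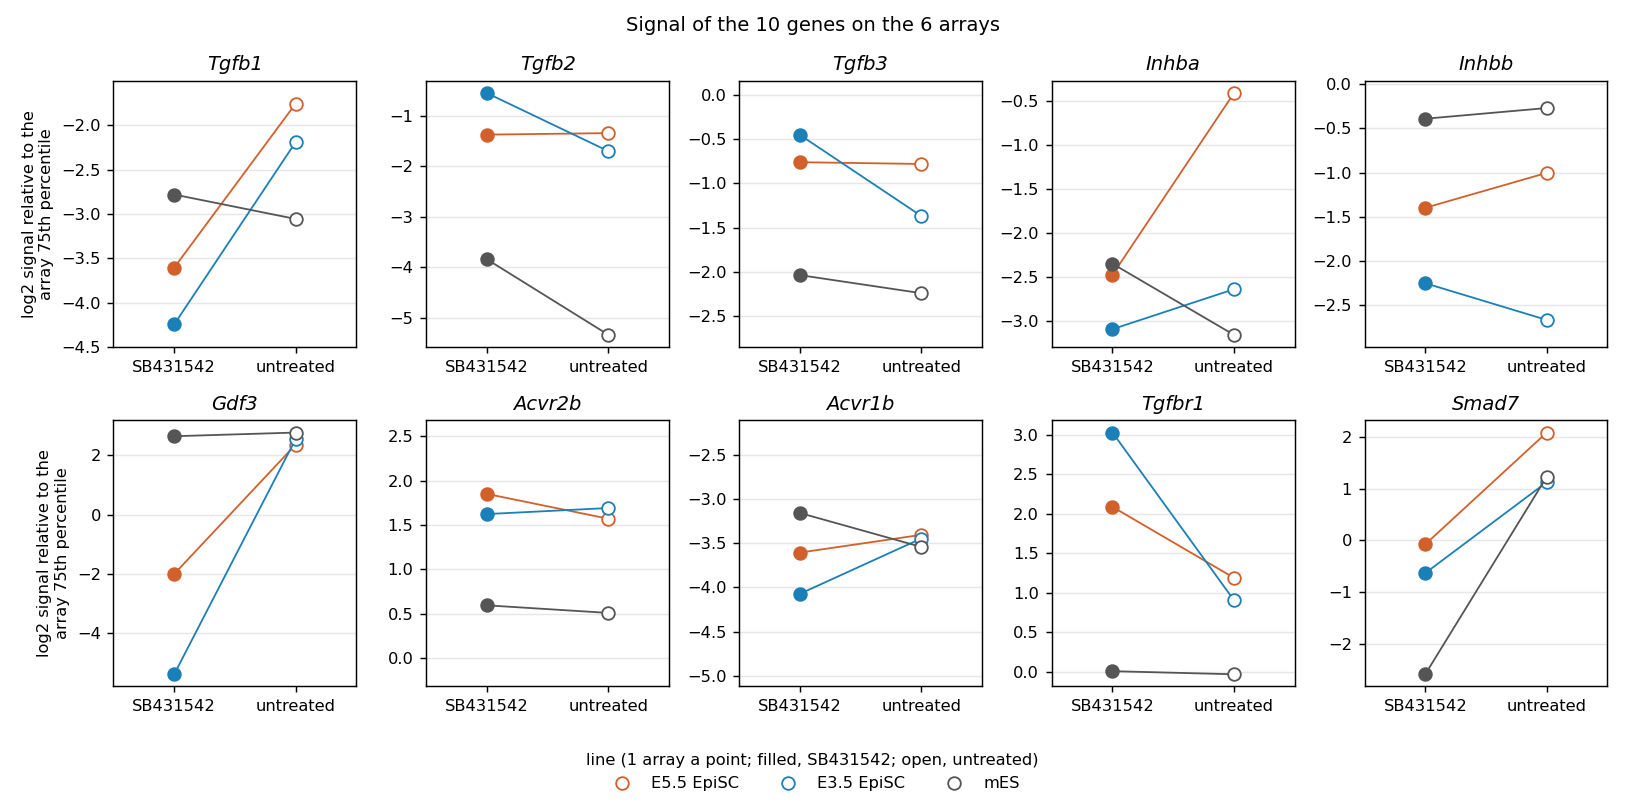
Log2 signal relative to the array's 75th percentile (vertical axes, each with its own range) of the 10 genes with SB431542 and untreated, 1 point an array and 1 colour a line. Smad7 was lower with SB431542 in each of the 3 lines, and Gdf3 and Tgfb1 were lower in both EpiSC lines, with log2 ratios of -0.12 and 0.28 in mES cells.

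The first question was how the inhibitor changed these transcripts in EpiSCs. Gdf3, Tgfb1 and Smad7 were lower with SB431542 in both EpiSC lines, and Tgfbr1 was higher in both. Inhba (log2 ratios of -2.07 in E5.5 and -0.45 in E3.5 EpiSCs) and Acvr1b (-0.20 and -0.62) were also lower in both. Tgfb3 was higher in both by value (0.02 and 0.92). The lines pair treated with untreated arrays. With the line as a block, Gdf3, Tgfb1 and Smad7 fell, 3 of 10 genes where 5.4% of all 16153 genes passed. Without the block 0 of the 10 passed, where 2.13% of all genes did, and 4 of the 10 had an unadjusted p under 0.05, as did 3225 of 16153 genes. The genes' median change was -0.20, against -0.19 over all genes tested, and 5 of 10 estimates were positive.

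Among the ligands, Tgfb1 encodes the founding member of the family, which is secreted in a latent complex. It stood at -3.61 with SB431542 and at -1.76 without in E5.5 EpiSCs, at -4.25 and -2.19 in E3.5 EpiSCs, and at -2.78 and -3.06 in mES cells. The treated EpiSC arrays were the lowest of the 6 and the untreated EpiSC arrays the highest, so the EpiSC groups did not overlap. How many of all genes separate in such a way, for this gene and for those below, was not counted. With 2 arrays a group the order alone says little. The mean was -3.93 ± 0.45 in treated and -1.97 ± 0.31 in untreated EpiSCs (SD, n = 2 each), a change of -1.95 ± 0.36 (SE, limma adjusted p = 0.0808, and 0.0351 with the line as a block). Repeat spots of the Tgfb1 probe within an array had an SD of 0.04 to 0.20 over 8 to 10 spots, which measures spotting and scanning within an array and not the spread between cultures. In mES cells the log2 ratio was 0.28, and the response of EpiSCs minus that of mES cells was -2.23 ± 0.62 (limma adjusted p = 0.531), which did not pass.

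Tgfb2 encodes a TGF-beta isoform used widely in embryonic patterning. It stood at -1.37 with SB431542 and at -1.34 without in E5.5 EpiSCs, at -0.55 and -1.70 in E3.5 EpiSCs, and at -3.84 and -5.34 in mES cells. Both mES arrays lay below all 4 EpiSC arrays. The treated arrays were 2.82-fold higher in mES cells and 2.22-fold higher in E3.5 EpiSCs, with no such gap in the E5.5 pair. Over both EpiSC lines the change was 0.56 ± 0.39 (limma adjusted p = 0.458). In mES cells the raw intensity was 89.1 with SB431542 against 34.1 untreated, near the dim end of the array, and only 111 of 16153 genes were raised by more.

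Tgfb3, the third TGF-beta isoform gene, stood at -0.76 with SB431542 and at -0.78 without in E5.5 EpiSCs, at -0.45 and -1.37 in E3.5 EpiSCs, and at -2.03 and -2.24 in mES cells. The E3.5 pair differed most of the 3, by 0.92 on the log2 scale, and the EpiSC change of 0.47 ± 0.33 did not pass (limma adjusted p = 0.469). Across the 6 arrays Tgfb2 and Tgfb3 had a Pearson r of 0.96, given as a description of arrays that share lines and treatments.

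Inhba encodes the beta A subunit, which forms Activin A as a homodimer. It stood at -2.48 with SB431542 and at -0.41 without in E5.5 EpiSCs, at -3.09 and -2.64 in E3.5 EpiSCs, and at -2.35 and -3.16 in mES cells. The untreated E5.5 array was the highest of the 6, and the gap of that pair was 4.19-fold, while the mES pair went the other way. The EpiSC mean was -2.78 ± 0.44 with SB431542 and -1.52 ± 1.58 untreated (SD, n = 2 each), and the change of -1.26 ± 0.80 did not pass (limma adjusted p = 0.426). Inhbb, the beta B subunit gene, stood at -1.40 with SB431542 and at -1.0 without in E5.5 EpiSCs, at -2.25 and -2.66 in E3.5 EpiSCs, and at -0.39 and -0.27 in mES cells. Its change in EpiSCs was 0.01 ± 0.66 (limma adjusted p = 0.993). Its dimmer second probe disagreed in the E3.5 pair, with a log2 ratio of -0.60 where the brighter probe had 0.41.

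Markers of fibroblasts, which feeder cells would also carry, also differed within the pairs. The summed relative signal of the 10 markers, all measured, was 38.6 with SB431542 and 72.8 without in E5.5 EpiSCs, 41.7 and 13.3 in E3.5 EpiSCs, and 35.3 and 16.4 in mES cells. By pair, 0 markers were at least 2-fold higher and 5 lower in E5.5 EpiSCs, and 7 were higher and 0 lower in E3.5 EpiSCs. In mES cells 3 were higher and 0 lower. In either direction, 16% of genes differed by at least 2-fold in E5.5 EpiSCs, 32.2% in E3.5 EpiSCs and 2.63% in mES cells. These shares count genes whose stronger signal of the pair was well above background. On each array 9 or 10 of the 10 markers were above background. Their part in the values of Tgfb2, Tgfb3 and Inhba was not tested.

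Gdf3 encodes a ligand that signals like Nodal and is expressed in pluripotent cells. It stood at -2.00 with SB431542 and at 2.37 without in E5.5 EpiSCs, at -5.39 and 2.55 in E3.5 EpiSCs, and at 2.65 and 2.77 in mES cells. The 4 arrays other than those of treated EpiSCs lay close together, and the treated EpiSC arrays lay far below them. The treated signal was 20.7-fold lower in E5.5 EpiSCs and 246-fold lower in E3.5 EpiSCs, where only 7 of 16153 genes were lowered by more. The raw intensity there was 43.1 with SB431542, near the dim end of the array, against 6993 untreated, so the larger fold rests on a dim spot. The EpiSC mean was -3.69 ± 2.39 with SB431542 and 2.46 ± 0.13 untreated (SD, n = 2 each), and the change was -6.15 ± 1.14 (SE, limma adjusted p = 0.0833, and 0.0327 with the line as a block). The response of EpiSCs minus that of mES cells was -6.03 ± 1.97 (limma adjusted p = 0.641) and did not pass.

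The type I receptor gene Tgfbr1 stood at 2.09 with SB431542 and at 1.19 without in E5.5 EpiSCs, at 3.03 and 0.91 in E3.5 EpiSCs, and at 0.01 and -0.03 in mES cells. The treated EpiSC arrays were the highest of the 6, the untreated EpiSC arrays came next, and the mES arrays did not separate. The treated signal was 1.86-fold higher in E5.5 EpiSCs and 4.35-fold higher in E3.5 EpiSCs, and a dimmer second probe gave log2 ratios of 0.75 and 1.22 in the same direction. The change was 1.51 ± 0.41 (limma adjusted p = 0.158, and 0.116 with the line as a block), with a 95% interval from 0.44 to 2.58 before adjustment for multiple tests.

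Acvr2b encodes a type II receptor for Activin and Nodal. It stood at 1.85 with SB431542 and at 1.57 without in E5.5 EpiSCs, at 1.62 and 1.69 in E3.5 EpiSCs, and at 0.59 and 0.51 in mES cells. Both mES arrays lay below all EpiSC arrays, and treated and untreated EpiSCs overlapped. Its change in EpiSCs was 0.11 ± 0.27 (limma adjusted p = 0.836), with a 95% interval from -0.59 to 0.80. Acvr1b, the gene for the Activin type I receptor ALK4, stood at -3.61 with SB431542 and at -3.41 without in E5.5 EpiSCs, at -4.07 and -3.45 in E3.5 EpiSCs, and at -3.16 and -3.54 in mES cells. Its change in EpiSCs was -0.41 ± 0.29 (limma adjusted p = 0.471), with a 95% interval from -1.19 to 0.36, so a halving could not be told from no change.

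Smad7, the inhibitory Smad gene and a direct target of the pathway in many cell types, stood at -0.08 with SB431542 and at 2.09 without in E5.5 EpiSCs, at -0.63 and 1.13 in E3.5 EpiSCs, and at -2.59 and 1.23 in mES cells. All 3 treated arrays lay below all 3 untreated arrays, and how many of all genes do so was not counted. The treated signal was 4.49-fold lower in E5.5 EpiSCs, 3.39-fold lower in E3.5 EpiSCs and 14.2-fold lower in mES cells, with raw intensities of 212 and 3254 in the mES pair. In mES cells only 6 of 16153 genes were lowered by more, against 455 in E5.5 EpiSCs and 1257 in E3.5 EpiSCs. The change in EpiSCs was -1.96 ± 0.44 (SE, n = 2 each, limma adjusted p = 0.113, and 0.0382 with the line as a block). The response of EpiSCs minus that of mES cells was 1.86 ± 0.77 (limma adjusted p = 0.758), so a larger effect in mES cells was not shown.

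**Figure D2:**
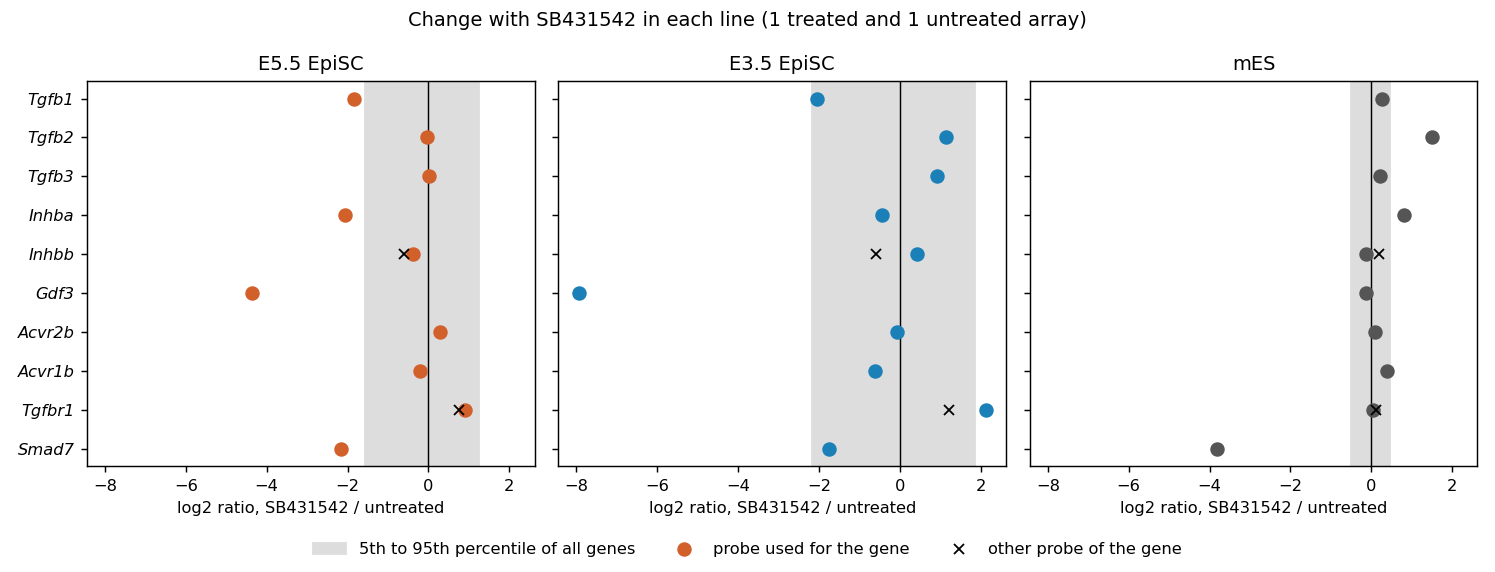
Log2 ratio of SB431542 over untreated (horizontal axis) for the 10 genes in each line, from 1 array each, against the 5th to 95th percentile of all 16153 genes (grey). Smad7 lay far below the grey band in mES cells, Gdf3 far below it in both EpiSC lines, and Tgfb1 within it in E3.5 EpiSCs.

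Taken line by line, without a test, 4 of the 10 genes differed by at least 2-fold in E5.5 EpiSCs, where 16% of the genes did (those well above background on the array where they were brighter). Tgfb1, Inhba, Gdf3 and Smad7 were lower there. In E3.5 EpiSCs 5 of 10 did, where 32.2% of all did: Tgfb1, Gdf3 and Smad7 were lower and Tgfb2 and Tgfbr1 were higher. In mES cells 2 of 10 did, Smad7 lower and Tgfb2 higher, where 2.63% of all did. The spread of all genes was wider in the EpiSC pairs than in the mES pair. From the 5th to the 95th percentile the log2 ratios of all genes ran from -1.57 to 1.25 in E5.5 EpiSCs, from -2.19 to 1.86 in E3.5 EpiSCs, and from -0.51 to 0.47 in mES cells. Their medians were -0.05, -0.31 and 0.02 in the same order, a shift against which the E3.5 values can be read.

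The effect common to the 3 lines was fitted with line and treatment as terms. For the 10 genes and for all genes, 0 passed, a background of 0%, although 1395 of 16153 genes and 2 of the 10 had an unadjusted p under 0.05. Smad7 had the estimate with the smallest p of the 10 (-2.58 ± 0.47, unadjusted p = 0.00393, limma adjusted p = 0.502). The other gene with an unadjusted p under 0.05 was Gdf3 (-4.14 ± 1.54). Next in order of p were Tgfb2 (0.87 ± 0.37), Tgfbr1 (1.02 ± 0.45) and Tgfb1 (-1.21 ± 0.54). Without either mES array this fit is that of the EpiSC lines alone, in which 872 genes passed, Gdf3, Tgfb1 and Smad7 among them. In the test of whether the response differed between EpiSCs and mES cells, 0 of 16153 genes passed (0%), with 1125 of them and 2 of the 10 at an unadjusted p under 0.05.

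The second question was how the untreated cell classes differ in these genes. Tgfb2 was the only one of the 10 that passed, and it was higher in EpiSCs. It stood at -1.34 in E5.5 and -1.70 in E3.5 EpiSCs, against -5.34 in mES cells, a difference of 3.82 ± 0.47 (SE, n = 2 EpiSC arrays and 1 mES array, limma adjusted p = 0.0466, and 0.0308 with the line as a block), or 14.1-fold. Of all 16153 genes 245 passed in either direction, and 62 (0.384%) in this direction. The call was lost with normexp background correction (2.64, adjusted p = 0.0600), with the mean over a gene's probes (adjusted p = 0.0510), with every probe tested by itself (adjusted p = 0.0514), without the E5.5 EpiSC array (3.64, adjusted p = 0.0684), without the E3.5 EpiSC array (4.00, adjusted p = 0.0517), and without either treated EpiSC array (adjusted p = 0.0868). The untreated mES signal of Tgfb2 had a raw intensity of 34.1, near the dim end of the array, so the fold rests on a dim spot. Fibroblast markers were at a summed 72.8 in E5.5 EpiSCs and 13.3 in E3.5 EpiSCs, against 16.4 in mES cells, and their part in the Tgfb2 difference was not tested.

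**Figure D3:**
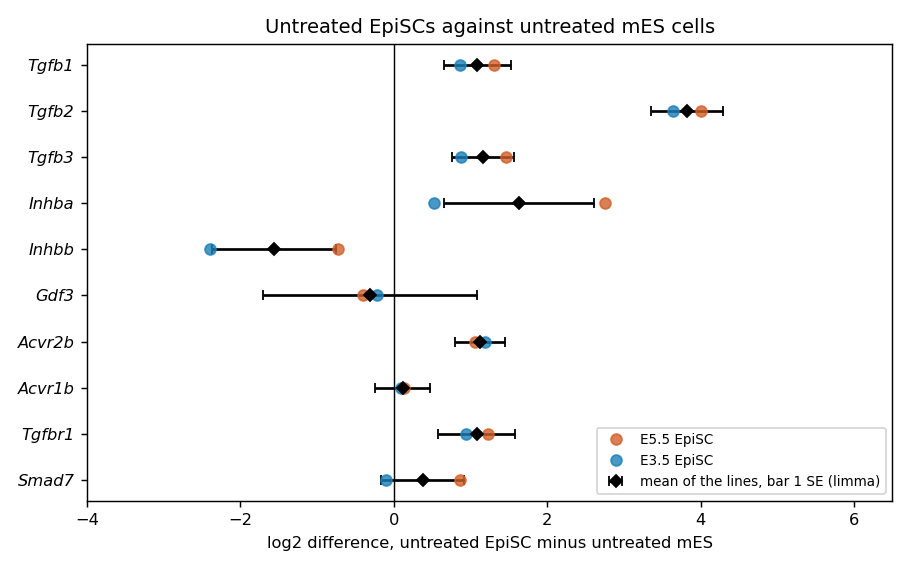
Log2 difference of untreated EpiSCs minus untreated mES cells (horizontal axis) for the 10 genes, by line (circles) and as the limma estimate with 1 SE (diamonds). Tgfb2 lies farthest to the right, at 4.00 in the E5.5 line and 3.64 in the E3.5 line, and Inhbb is to the left of 0 in both.

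The other genes did not pass between untreated EpiSCs and mES cells. Tgfb3 differed by 1.16 ± 0.41 (limma adjusted p = 0.268) and Acvr2b by 1.12 ± 0.32 (adjusted p = 0.201), and these and Tgfb2 had an unadjusted p under 0.05, 3 of the 10, as did 2664 of 16153 genes. Tgfb1 (1.08 ± 0.44), Tgfbr1 (1.08 ± 0.50) and Inhba (1.63 ± 0.98) had positive estimates, Inhba with the lines far apart at -0.41 in E5.5 and -2.64 in E3.5 EpiSCs, against -3.16 in mES cells. Inhbb was lower by estimate (-1.56 ± 0.81), but its second probe gave 0.61 ± 0.48. Gdf3 (-0.31 ± 1.39), Smad7 (0.38 ± 0.54) and Acvr1b (0.12 ± 0.36) had estimates within their error or below it. The errors in this fit pool the spread of treated and untreated EpiSC arrays. For Gdf3 the SD was 2.39 in treated and 0.13 in untreated EpiSCs, so its error does not measure the spread of untreated cells alone. In all, 8 of 10 estimates were positive, with a median of 1.08 against -0.06 over all genes. All 10 share the single untreated mES array, so their signs are not independent, and the genes were not tested as a set.

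Between E5.5 and E3.5 EpiSCs, over both treatments, 0 of the 10 and 0 of all 16153 genes passed (0%), with 1263 genes and 1 of the 10 at an unadjusted p under 0.05. That one was Inhbb, at 1.25 ± 0.30 (limma adjusted p = 0.527), with 0.62 ± 0.32 by its second probe. Inhba differed by 1.42 ± 0.73 and Gdf3 by 1.60 ± 1.88. The slide changed with the line here, and the part of each cannot be told apart.

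The genes around these 10 were read from 6 lists. The lists, like the 10 genes, were chosen with earlier results of these data known. Their counts beside the background are therefore a description and not a test of the lists. Of 16 measured inhibitors and feedback genes, 4 fell with SB431542 in EpiSCs and 0 rose, with a median of -0.36 against -0.19 over all genes and a background of 2.13%. Lefty1, an antagonist of Nodal, fell by 10.36 ± 0.58 (limma adjusted p = 0.0235), its relative Lefty2 fell by 6.09 ± 0.71, and Dact2, which promotes breakdown of Nodal receptors, fell by 2.44 ± 0.30. Cer1, a secreted Nodal antagonist, was at least 449-fold lower (adjusted p = 0.0429), with means of -7.41 in treated and 2.17 in untreated EpiSCs, and it was not well above background on the treated EpiSC arrays. With the line as a block Pmepa1, a feedback inhibitor of Smad phosphorylation, fell too (-2.23, adjusted p = 0.0287). Smad6 changed by -0.34 and Bambi, a decoy receptor gene, by -1.58, and neither passed. In mES cells, without a test, Lefty1 stood at -4.21 with SB431542 against 3.58 untreated, and Lefty2 at -3.28 against 0.97.

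Of 12 other receptors and co-receptors, 1 rose and 1 fell in EpiSCs with SB431542 (median -0.06). Bmpr1b, a type I receptor for BMPs, rose by 3.73 ± 0.50 (limma adjusted p = 0.0474), and Tdgf1, the Nodal co-receptor Cripto, fell by 6.82 ± 0.52 (adjusted p = 0.0262). With the line as a block Eng, a co-receptor for TGF-beta, fell as well (-2.14, adjusted p = 0.0305). The nearest receptors of the described genes did not pass: Tgfbr2 changed by -0.04, Acvr2a by 1.1 and Acvr1c by -0.09. Of 9 other ligands measured out of 10 (Nodal had no named probe), 0 passed (median -0.05), and with the block Gdf9, an oocyte growth factor gene, rose (1.85, adjusted p = 0.0404).

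Of 12 Smads and nuclear partners 0 passed (median -0.03), with log2 changes of 0.20 for Smad2, 1.48 for Smad3 and 0.03 for Smad4. Skil, a co-repressor gene that the pathway induces in other cells, stood at 1.83 with SB431542 against 3.0 in E5.5 EpiSCs, at 1.03 against 2.89 in E3.5 EpiSCs, and at 1.17 against 2.41 in mES cells, and its estimate of -1.51 ± 0.37 did not pass. Of 11 genes for ligand processing and activation 0 passed (median -0.16). Of 21 genes known as TGF-beta targets in other cell types 0 passed (median -0.51), and with the block the repressor gene Zeb2 rose (1.67, adjusted p = 0.0469) and the integrin gene Itgb5 fell (-2.92, adjusted p = 0.0195).

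**Figure D4:**
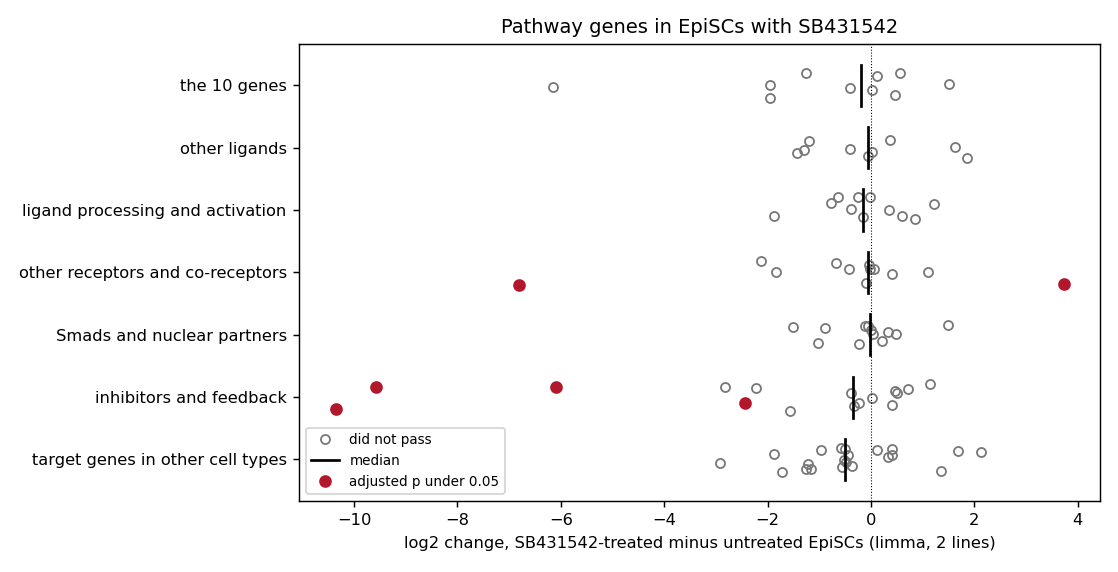
Log2 change of SB431542-treated minus untreated EpiSCs (horizontal axis) for the 10 genes and the genes of 6 lists, 1 circle a gene, filled where the limma adjusted p was under 0.05, with the median as a bar. The filled circles are 4 inhibitors and feedback genes to the left and 2 receptor genes, and the medians of all lists lie between -0.51 and -0.03.

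In untreated EpiSCs against mES cells, Zeb2 rose by 3.06 ± 0.31 (limma adjusted p = 0.0322), 1 of 21 target genes, and that list had 17 positive estimates and a median of 1.34 against -0.06 over all genes. No gene of the other 5 lists passed there. With the line as a block 3.98% of all genes passed, and the added genes were Thbs1 and Bmp1, which act in ligand release and processing, the antagonist genes Cer1 and Fstl1, and the adhesion gene Cdh2, all higher in EpiSCs, and Eng, which was lower. The fibroblast list had 10 of 10 positive estimates and a median of 0.67, with 0 genes passing. These estimates average both EpiSC lines, which differed. The summed marker signal was 72.8 in untreated E5.5 EpiSCs and 13.3 in untreated E3.5 EpiSCs, against 16.4 in untreated mES cells. All estimates in this comparison share the single untreated mES array. The part of the fibroblast markers in these values was not tested.

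For each of the 10 genes the most similar patterns were sought among the 9012 genes above background on all 6 arrays whose levels ranged over at least 1 on the log2 scale, by Pearson r over the 6 arrays, which is a description with no test. Smad7 had the lowest best match, with Rftn1 (0.95) and Bcl11a (0.92). The others had best matches of 0.98 to 1.0, with Smyd5 and Paox for Gdf3, Zfp329 and Carhsp1 for Tgfbr1, Mdk and Parp8 for Acvr2b, Slc13a4 and Dhrs7 for Tgfb1, and Gypc and Camk1 for Tgfb2. They were Prss12 and Smpdl3a for Tgfb3, Penk and Gchfr for Inhba, Myh4 and Itgam for Inhbb, and Pabpc1 and Ccdc59 for Acvr1b. With 6 points and 9012 candidates, high values of r are to be found for most patterns.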

How the data were processed

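Cy3-labelled cRNA from total RNA of 6 samples was put on one-colour arrays, per the labels. The deposited scanner files hold the linear intensity of each spot after background subtraction by Agilent Feature Extraction. The version is 10.7.1.1 per the file headers and 9.1 per the submitters' processing notes. The deposited flags for spots above background are yes-or-no marks by that program, per the file headers. The series value table held the same intensities at 45018 of 45018 rows.

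Processed signals were taken to log2, and the 75th percentile of each array was subtracted. The files carry no gene symbols, so 24375 of 41174 probes were named by accession through the RefSeq table of GRCm38.p6. A gene took its probe with the highest mean signal, and the 16153 genes well above background on at least 1 array were tested with limma 3.58.1 in R 4.3.3 (Benjamini-Hochberg, 0.05). One fit had 4 arms over 6 arrays and another had line plus treatment, each with 2 residual degrees of freedom, with the spread of the single mES arrays taken to equal that between EpiSC lines. The block has a term for the line and leaves 1 residual degree of freedom in the fit of 4 arms. Treated and untreated arrays of a line are the same cell line, which is the pairing, and the E5.5 minus E3.5 differences of treated and untreated arrays had r = 0.27 across 16153 genes. Single pairs were described by whether the ratio reached 2-fold, over genes well above background on whichever array was brighter. For a gene at background throughout the dimmer group the text gives "at least N-fold", the brighter mean against, per array, the higher of its own signal and the lowest signal well above background. The normexp alternative used median spot signals, since mean signals are not among the columns used. The code was tested on simulated data. Named were all 10 genes, list genes that passed, near relatives of the 10, and the 2 most similar genes by pattern. The 10 genes and the lists were chosen with earlier results of these data known. The number of arrays limits the precision.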

Additional observations from a re-analysis of the deposited data

Results flagged for a closer look

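The response to SB431542 had opposite signs in E5.5 and E3.5 EpiSCs for 3 of the 10 genes, from 1 pair of arrays each. The difference was not tested. The share of all genes with opposite signs was not counted, so the count is not read as a trait of these genes. For Tgfb2 the log2 ratio was -0.03 in the E5.5 pair and 1.15 in the E3.5 pair, a difference of -1.18. For Inhbb it was -0.39 and 0.41 in the same order, a difference of -0.81, and its second probe had -0.60 in both pairs. For Acvr2b it was 0.28 and -0.07, a difference of 0.35. The opposite sign of Acvr2b was lost under other scalings, with 0.33 and 0.34 with normexp and 0.35 and 0.098 with quantile normalization, while Tgfb2 and the brighter Inhbb probe kept opposite signs under both. Each of these ratios lies inside the 5th to 95th percentile of all genes in its pair.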

How the results depend on the processing

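For SB431542 in EpiSCs the count of genes that passed was 344, and 546 with genes above background on all 6 arrays, 587 with every probe tested by itself, 872 with the line as a replicate block, and 0 to 344 when 1 array was left out (203 without the untreated E3.5 array, 0 without either treated EpiSC array). Of the 10 genes, 0 passed there, 1 with normexp (Gdf3, adjusted p = 0.0248), 3 with the block, and 0 in every fit without 1 array. Across the 3 lines, 0 genes passed, and 0 to 872 without 1 array (3 without either E5.5 array), with 0 to 3 of the 10. Between untreated EpiSCs and mES cells 245 genes passed, 457 with every probe, 643 with the block and 0 to 245 without 1 array (0 without either treated EpiSC array), and of the 10 genes 1 passed, 0 with normexp, 0 with the mean over probes (Tgfb2 adjusted p = 0.0510), 0 with every probe (0.0514) and 0 to 1 without 1 array. Between the EpiSC lines 0 genes passed, 4 with those lines alone and the line as replicate block, and 0 to 6 without 1 array (5 without the untreated E5.5 array). In mES cells 2 of the 10 differed by at least 2-fold, and 1 with normexp, where Tgfb2 had 0.81. These signs turned. Inhbb in EpiSCs was -0.16 with normexp and -0.30 with the mean over probes, and -0.82 to 0.84 without 1 array (-0.42 without the treated E5.5 array). Its response difference was -0.0059 with normexp and -0.32 with the mean over probes, and -0.70 to 0.96 without 1 array (-0.29 without the treated E5.5 array). Acvr1b across lines was 0.092 within slide 1, and -0.41 to 0.092 without 1 array. Ranges without 1 array that crossed 0 were, in EpiSCs, -0.0073 to 0.22 for Acvr2b. Across lines they were -1.26 to 0.18 for Inhba and -0.26 to 0.15 for Inhbb (0.010 without either mES array). Between untreated classes that for Smad7 was -0.10 to 0.86. For the response difference they were -0.093 to 0.13 for Acvr2b (-0.040 without the untreated E5.5 array) and -0.029 to 0.56 for Tgfb3. Between EpiSC lines they were -1.25 to 4.44 for Gdf3, -0.91 to 0.45 for Tgfb2, -1.16 to 0.50 for Tgfbr1, -0.10 to 1.17 for Tgfb1, -0.26 to 0.54 for Tgfb3 (-0.13 without the untreated E5.5 array), -0.083 to 0.19 for Acvr2b (-0.072 without the treated E3.5 array) and -0.10 to 0.61 for Acvr1b. The cause was not tested. The slide as a random block could not be fitted.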

Other observations

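Fst, Dcn and Thbs1 were tested with the lists, and none passed with SB431542 in EpiSCs, with or without the line as a block. Their changes were, in that order, -2.82 ± 1.19 (limma adjusted p = 0.279), 0.71 ± 0.77 (adjusted p = 0.624) and 1.22 ± 0.51 (adjusted p = 0.277). Fst, which encodes the Activin-binding protein follistatin, stood at 0.84 with SB431542 against 1.90 in E5.5 EpiSCs, at -2.70 against 1.88 in E3.5 EpiSCs, and at -2.39 against -2.59 in mES cells. Dcn, the gene for the TGF-beta binding proteoglycan decorin and one of the fibroblast markers, stood at 2.89 against 3.30, at 2.91 against 1.09, and at 3.33 against 1.37 in the same order of lines. Thbs1, whose product activates latent TGF-beta, stood at -0.33 against -1.87, at -1.56 against -2.46, and at -3.80 against -4.84, higher on the treated array of each line.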
